A study of Mus musculus with 6 samples.

Results

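The cornified envelope genes described here are Lor, Ivl, Cnfn, Sprr1a, Sprr1b, Sbsn, Krtdap, Tgm1 and Calml3. They were chosen by name, through the accession that the array gives each gene probe. The 9 genes were measured by 11 of the 55681 gene probes, with 2 probes each for Ivl and Calml3, and 7 of the 9 passed the filter on dim probes and were among the 22503 genes tested. Ivl and Sprr1b did not pass it.

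The cornified envelope is the protein shell that a keratinocyte of skin or of another stratified epithelium builds under its plasma membrane as it dies and flattens. Precursor proteins such as involucrin, loricrin, cornifelin and the small proline-rich proteins are made in the upper cell layers and are then joined by transglutaminases, which form covalent bonds between glutamine and lysine side chains. Mammary epithelium is a simple bilayer and does not cornify in the normal gland, although squamous change with keratin pearls is known in mouse mammary tumors.

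RNA came from live CD45- cells, that is cells without the pan-leukocyte surface protein, sorted from dissociated orthotopic transplants of MMTV-PyMT late carcinomas grown in syngeneic C57BL/6 mice. In the MMTV-PyMT model the polyomavirus middle T oncogene is driven by a viral promoter active in mammary epithelium, and all donor tumors carried it. The groups differed in the donor genotype, RANK+/+ or RANK-/-, RANK being a receptor of the tumor necrosis factor family that activates NF-kB. The deletion was germline in the donors, and per the methods the hosts were syngeneic females, so host stroma that lacks CD45 could be part of the sorted cells. The methods give the age of the hosts at implantation as a range of weeks, while the labels give none. No label ties the 3 RNAs of either genotype to separate tumors, so the spread between pairs may be in part technical. Each of 3 pairs put 1 RANK-/- RNA and 1 RANK+/+ RNA on the same array in 2 colors, on 2 technical arrays named A and B. In pair 1 the RANK-/- RNA was in the red dye Cy5, and in pairs 2 and 3 it was in the green dye Cy3, so dye cannot be told apart from pair. Dye swaps for each sample are named in the methods, whereas the labels give arrays A and B of a pair the same arrangement, and the labels were followed here.

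Tnfrsf11a, which encodes RANK, had log2 ratios of the RANK-/- over the RANK+/+ channel of 2.03, 1.15 and 1.76 in pairs 1, 2 and 3, which goes against the labels. Both points bear on which channel holds which RNA. The position of its probe relative to the deleted part was not examined here, so directions below refer to channels as labeled. The 8 luminal epithelial markers and the 6 fibroblast markers were well above background on every array in both channels, whereas the 4 adipocyte markers were so on none. Of 7 leukocyte markers, 4 were well above background on every array in either channel. Over all genes, limma called 0 (0%) of 22503 at an adjusted p under 0.05, with 647 at an unadjusted p under 0.05. A rank product on the same ratios called 19, none of them a member. Thus no member below passed the limma test, of the 7 tested 0 had an unadjusted p under 0.05, and the adjusted p was 0.999 for each of the 7 tested members.

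The genes do not lie together. Lor, Sprr1b, Sprr1a and Ivl are on chromosome 3, in the epidermal differentiation complex, where RefSeq (GRCm38.p6) places 16 protein-coding genes between Lor and Ivl, 4 of them tested here. Sbsn and Krtdap are on chromosome 7 and are separated by 1 protein-coding gene, Dmkn. Cnfn is elsewhere on chromosome 7, Calml3 on chromosome 13 and Tgm1 on chromosome 14. The sequences next to the starts of these genes are shown because the exact letters TGANTCA and TATAAA were found in most of them but not in Cnfn and Tgm1. RefSeq promoter windows of 250 bases before and 50 after the start were at hand for 8 of the 9 members, with 2 windows for Tgm1, and 7 motifs were searched on both strands. TGANTCA, the letters bound by the AP-1 dimers of Fos and Jun proteins, was found in 6 of the 8 members against 7.81% of 32851 windows. TATAAA, the TATA box of focused promoters, was found in 5 of the 8 against 13.6%. Cnfn and Tgm1 had neither in these exact letters, although the Cnfn stretch printed below holds the TATA-like letters TATAAG. Such variants were not searched. Cnfn and Tgm1 were the only members of the 8 with the GC box GGGCGG, which 35.7% of windows hold. CACCC, the core of KLF sites, was in 7 of 8 against 57.5%, and GGAAG, the ETS core, in 6 of 8 against 71.4%. AACCGGTT, a Grainyhead-type site, and CCGTTA, a Myb-type site, were in none of the 8, against 0.146% and 2.76% of windows. TGANTCA reads the same on both strands, and none of its matches overlapped a TATAAA match. These counts describe letters in the windows and were not tested.

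The stretches printed here run from 170 bases before to 10 bases after the annotated start, 5′ to 3′ on the gene's strand, with TGANTCA and TATAAA in capitals. Those of Sprr1a, chr3:92485872-92486051, Sprr1b, chr3:92438770-92438949, Lor, chr3:92083133-92083312, Cnfn, chr7:25369715-25369894, and Tgm1, chr14:55713483-55713662, are on the minus strand, and that of Krtdap, chr7:30787735-30787914, is on the plus strand.
Sprr1a: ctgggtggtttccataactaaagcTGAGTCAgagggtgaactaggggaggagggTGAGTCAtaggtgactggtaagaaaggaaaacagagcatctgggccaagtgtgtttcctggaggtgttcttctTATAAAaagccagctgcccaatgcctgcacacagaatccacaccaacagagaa
Sprr1b: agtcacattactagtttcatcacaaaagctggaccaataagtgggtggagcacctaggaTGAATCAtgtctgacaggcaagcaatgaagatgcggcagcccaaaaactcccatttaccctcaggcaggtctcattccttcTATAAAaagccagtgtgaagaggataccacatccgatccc
Lor: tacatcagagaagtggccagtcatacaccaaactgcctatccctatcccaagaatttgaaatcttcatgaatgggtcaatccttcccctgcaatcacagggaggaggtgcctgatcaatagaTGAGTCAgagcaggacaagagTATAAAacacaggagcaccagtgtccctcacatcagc
Krtdap: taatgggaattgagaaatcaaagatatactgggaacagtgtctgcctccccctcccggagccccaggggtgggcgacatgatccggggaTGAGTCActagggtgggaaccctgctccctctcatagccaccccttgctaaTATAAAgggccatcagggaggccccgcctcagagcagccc
Cnfn: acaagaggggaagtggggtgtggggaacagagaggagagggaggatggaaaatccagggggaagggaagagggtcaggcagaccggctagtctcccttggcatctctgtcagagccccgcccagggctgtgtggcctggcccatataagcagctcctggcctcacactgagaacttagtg
Tgm1: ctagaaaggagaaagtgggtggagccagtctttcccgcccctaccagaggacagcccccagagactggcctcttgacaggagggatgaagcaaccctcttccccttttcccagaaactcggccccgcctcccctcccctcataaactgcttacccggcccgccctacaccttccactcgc

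Sprr1a had a pair of AP-1 type sequences, starting 146 and 116 bases before the start, and a TATA sequence 43 bases before it. Its neighbor Sprr1b had 1 TGANTCA match, reading TGAATCA, and 1 TATA sequence, at 111 and 30 bases. In Lor the AP-1 type sequence lay 48 bases and the TATA sequence 27 bases upstream, and in Krtdap they lay 81 and 30 bases upstream. Ivl, which is not printed, had them at 116 and 29 bases. Sbsn, also not printed, had TGANTCA matches at 119 bases, reading TGAATCA, and at 6 bases, reading TGAGTCA, and no TATAAA.

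Levels below are normalized log2 intensities of 1 channel, averaged over arrays A and B, and a level is compared only with other levels of the same probe. The correction of the background added 50 to every signal, so a probe without signal had a level near 6 and ratios of dim probes were drawn toward 0. A ratio is the log2 level in the RANK-/- channel minus that in the RANK+/+ channel of the same pair. Its error is the SD over n = 3 pairs. SE is the moderated standard error of the limma fit, which draws each gene's variance toward that of all genes. For every tested member it was smaller than the SD of the 3 ratios alone would give.

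Involucrin, the early scaffold protein of the envelope, was not detected. Both Ivl probes stayed at background on each array and channel (0 of 6 arrays called). On the brighter probe the RANK-/- levels were 6.01, 6.10 and 6.12 and the RANK+/+ levels 6.05, 6.11 and 5.98 in pairs 1, 2 and 3. These values span the level of a probe without signal and have no order. The number of arrays and the background limit what could be seen of this gene.

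Loricrin is the main protein of the mature envelope, and its gene Lor was detected on all 6 arrays in both channels at low signal. The RANK-/- levels were 7.36, 6.36 and 6.83, and the RANK+/+ levels were 6.88, 7.28 and 7.10. The RANK-/- RNA of pair 1 was the highest of the 6 and that of pair 2 the lowest, with the RANK+/+ RNAs between them. The pair ratios of 0.48, -0.92 and -0.27 averaged -0.24 ± 0.70 (SD, n = 3, SE 0.31). In bulk RNA, fewer cells of a type and less RNA per cell cannot be told apart, here and for every gene below.

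Cornifelin, a minor envelope protein that joins loricrin and involucrin complexes, gave the largest single deviation toward the RANK+/+ channel in pair 1 among the 9 genes. The Cnfn levels were 6.67, 6.70 and 6.53 in the RANK-/- RNAs and 8.98, 6.54 and 6.74 in the RANK+/+ RNAs. One RNA, RANK+/+ of pair 1, thus stood 4.96-fold above its partner, whereas the other 5 lay between 6.53 and 6.74. On its 2 arrays the median spot signal in that channel was 450 and 365.5, over a background of 32 and 31. The ratios were -2.31, 0.16 and -0.21, with a mean of -0.79 ± 1.33 (SE 0.54).

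The small proline-rich proteins are cross-bridging precursors that many epithelia also induce under stress. Sprr1a had the widest range of the 9 genes, 7.50-fold between its highest and lowest RNA. Its levels were 9.52, 7.85 and 8.93 in the RANK-/- RNAs and 10.01, 10.63 and 7.73 in the RANK+/+ RNAs. Within the pairs it was 1.40-fold and 6.88-fold lower in the RANK-/- channel of pairs 1 and 2 and 2.31-fold higher in pair 3, so that the lowest RNA of all was a RANK+/+ one. The ratios of -0.48, -2.78 and 1.20 averaged -0.69 ± 2.00 (SE 0.80).

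Sprr1b, its paralog, was close to background. The RANK+/+ channel was called above its background on 3 of 6 arrays, both of pair 1 and array A of pair 3, and the RANK-/- channel on 1 of 6, also array A of pair 3. The RANK-/- levels were 5.87, 5.88 and 6.10 and the RANK+/+ levels 6.99, 5.94 and 6.09. As for Cnfn, the RANK+/+ RNA of pair 1 stood apart, with a ratio of -1.12 in that pair against -0.07 and 0.01 in pairs 2 and 3. The probes of Sprr1a and Sprr1b differ, and cross-hybridization between the paralogs was not examined.

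Tgm1 encodes the membrane-bound transglutaminase 1, the enzyme that attaches precursors to the envelope. It was detected on every array, with levels of 8.72, 7.59 and 9.43 in the RANK-/- RNAs and 8.70, 9.27 and 7.88 in the RANK+/+ RNAs. Highest and lowest were both RANK-/- RNAs, of pairs 3 and 2. Tgm1 was 3.23-fold lower in the RANK-/- channel of pair 2 and 2.94-fold higher in that of pair 3, and its ratios of 0.03, -1.69 and 1.56 averaged -0.04 ± 1.62 (SE 0.65).

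Suprabasin (Sbsn) and keratinocyte differentiation-associated protein (Krtdap) are secreted products of suprabasal keratinocytes. Sbsn was clearly detected, at 10.12, 10.21 and 10.89 in the RANK-/- RNAs and 11.25, 10.38 and 10.18 in the RANK+/+ RNAs. Again the RANK+/+ RNA of pair 1 was the highest, and the RANK-/- RNA of pair 3 came next. The Sbsn ratios were -1.13, -0.17 and 0.71, with a mean of -0.20 ± 0.92 (SE 0.39). Krtdap was well above background in pair 1 in both channels and in pair 2 in the RANK+/+ channel, and in neither channel of pair 3. Its RANK-/- levels of 6.43, 6.13 and 6.18 and its RANK+/+ levels of 7.94, 6.31 and 6.09 showed 1 high RNA, that of RANK+/+ in pair 1. The Krtdap ratios were -1.51, -0.18 and 0.09, with a mean of -0.53 ± 0.86 (SE 0.36).

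Calml3 encodes a calmodulin-like calcium-binding protein of epithelial cells, which is abundant in differentiating keratinocytes and also made in normal mammary epithelium. On the brighter of its probes the levels were 12.36, 10.82 and 11.16 in the RANK-/- RNAs and 11.24, 11.66 and 11.33 in the RANK+/+ RNAs. As for Lor, the RANK-/- RNA of pair 1 was the highest and that of pair 2 the lowest. The ratios of 1.12, -0.84 and -0.17 averaged 0.04 ± 1.00 (SE 0.41). The second probe gave 0.76, -0.47 and -0.16, the same signs with smaller sizes.

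**Figure D1:**
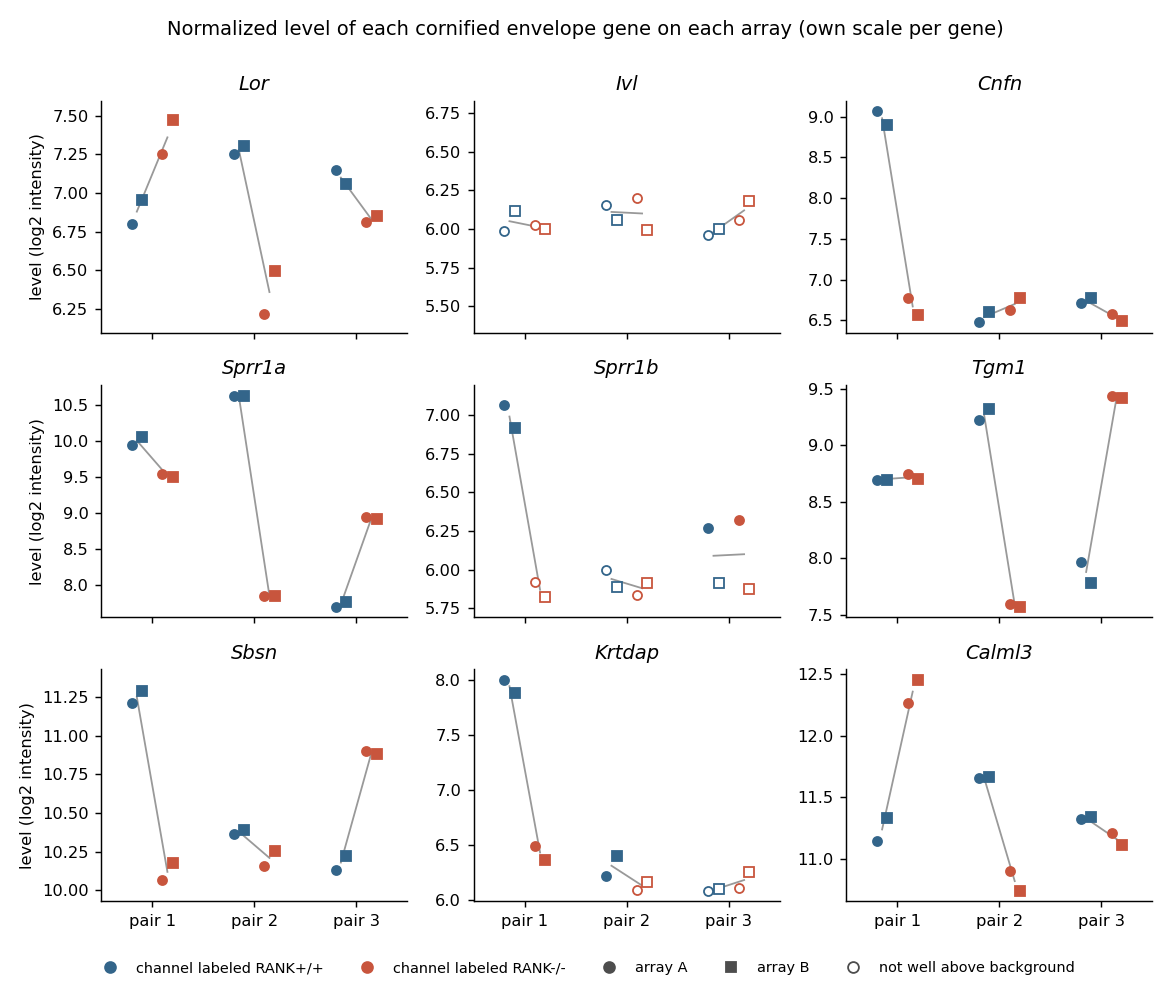
Level of each gene on each array, as normalized log2 intensity on the vertical axis with its own scale per gene, by pair on the horizontal axis. Blue marks the channel labeled RANK+/+ and red that labeled RANK-/-, circles and squares are arrays A and B, open symbols were not well above background, and gray lines join the means of a pair. Cnfn, Sprr1b, Sbsn and Krtdap were highest in the RANK+/+ RNA of pair 1, Sprr1a and Tgm1 crossed between pairs 2 and 3, and for Ivl, shown by the brighter probe, no array was above background.

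For the tested genes, technical arrays differed far less than pairs. The SD between arrays A and B of a pair was 0.05 to 0.11 for the 11 probes. For the 2 Ivl probes, at background, it was 0.08 and 0.09, against an SD over pairs of 0.09 and 0.13. The SD over pairs was 0.70 to 2.00 for the 7 tested genes. Their median SD over pairs was 1.00, against 0.33 over all genes tested. None of the 7 had levels that separated the genotypes. Of all genes 7.48% had 3 RANK-/- levels that did not overlap the 3 RANK+/+ levels. Likewise 0 of 7 were lower in the RANK-/- channel in all 3 pairs, and 0 of 7 were higher in all. Of all genes 9.65% were lower in all and 9.93% higher. Among 7 genes a count of 0 is near such shares. Of the 7 mean ratios 6 were below 0, Tgm1 at -0.04 among them, where 11022 of all 22503 genes had a mean below 0. The median of the 7 was -0.24. The medians in pairs 1, 2 and 3 were -0.48, -0.84 and 0.09, against 0.02, -0.01 and 0.00 for all genes.

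Differences of at least 2-fold occurred in single pairs. In pair 1, Cnfn, Krtdap and Sbsn, 3 of 7, were at least 2-fold lower in the RANK-/- channel, as were 2.84% of all genes. Krtdap passed the filter through the RANK+/+ channel, where it was above background on 4 of 6 arrays against 2 of 6, so its count on the lower side is in part set by the filter. Calml3, 1 of 7, was at least 2-fold higher in pair 1, as were 3.66%. In pair 2, Sprr1a and Tgm1 were lower by that much, against 2.37% of all genes, and 0 of 7 were higher, against 2.45%. In pair 3 the same 2 genes were at least 2-fold higher, against 4.91% of all genes, and 0 of 7 were lower, against 3.01%. Each such count compares 2 RNAs, not the genotypes.

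**Figure D2:**
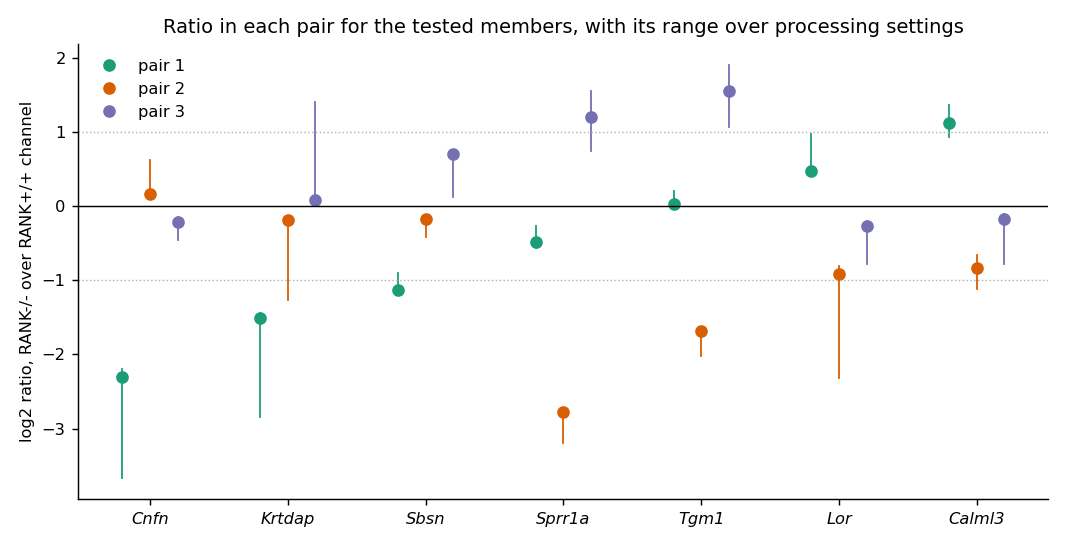
Log2 ratio of the RANK-/- over the RANK+/+ channel in each pair (points, vertical axis) for the 7 tested genes (horizontal axis), with lines from the lowest to the highest value over the settings that change pair values. Dotted lines mark a 2-fold difference. Cnfn, Krtdap and Sbsn were lowest in pair 1, Sprr1a and Tgm1 in pair 2 with positive values in pair 3, and Lor and Calml3 were positive in pair 1.

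The genes fell into 3 patterns over the 6 RNAs, which were named after the values were seen and are a description. Cnfn and Krtdap had a Pearson r of 0.98 over the 6 RNAs, and Sbsn had 0.75 with Cnfn and 0.76 with Krtdap. The first value rests on the RANK+/+ RNA of pair 1, since the other 5 Cnfn levels lay within 6.53 to 6.74 and the other 5 Krtdap levels within 6.09 to 6.43, near the level without signal. Lor and Calml3 had an r of 0.88, and Sprr1a and Tgm1 had 0.76. By contrast, Cnfn had -0.02 with Tgm1 and -0.14 with Lor. Other values across the patterns were higher, as Sprr1a had 0.54 with Lor and 0.5 with Krtdap, and Tgm1 had 0.49 with Lor. The patterns were thus not sharply apart. Pairs of RNAs shared an array, so the 6 points are not independent. Set beside the promoters above, Krtdap held both TGANTCA and TATAAA and Cnfn neither in these exact letters. Sprr1a held both and Tgm1 neither, whereas Krtdap and Sbsn shared TGANTCA and Krtdap and Sprr1b shared both motifs.

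Some other late keratinocyte genes had, like Cnfn and Krtdap, their lowest ratio in pair 1. Among 59 other genes of the cornified envelope and granular layer, 54 were on the array and 20 were tested. In them 2 were lower in the RANK-/- channel in all pairs, a share near the 9.65% of all genes, 0 were higher in all and limma called 0 (0 also at an unadjusted p under 0.05), with median ratios of -0.13, -0.24 and 0.08 in pairs 1, 2 and 3. In pair 1, 7 of the 20 were at least 2-fold lower in the RANK-/- channel, against 2.84% of all genes, and the other 13 were not. Crct1, among the 7, passed the filter through the RANK+/+ channel, above background on 6 arrays against 2. The count on the lower side is thus in part set by the filter. The 3 with the largest mean ratios were Asprv1, a protease that processes filaggrin, with -2.60, -0.91 and 0.36, Crct1, a cysteine-rich protein of the complex on chromosome 3, with -2.01, -0.27 and -0.26, and Prr9, a proline-rich gene of that complex, with -2.22, -0.25 and 0.09. At the other end, the late cornified envelope genes that were tested, such as Lce1c with 0.17, -0.03 and 0.02, differed little in any pair, and 22 genes of the list, most of them Lce and Sprr2 or Sprr3 genes, were above background on no array.

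Of 22 genes for barrier lipids and proteases of the granular layer, 15 were tested, and limma called 0 (2 at an unadjusted p under 0.05). In them 4 were lower in all pairs and 3 were higher in all, against 9.65% and 9.93% of all genes. The summed level of the 22 was 17300 in the RANK+/+ RNA of pair 1 and highest, at 19900, in the RANK-/- RNA of pair 3. Cers3, the ceramide synthase for the very long chain ceramides of the barrier, had -2.46, -0.96 and -0.86, a mean of -1.43 ± 0.89. Klk8, a kallikrein protease of desquamation, had -2.44, -0.49 and -0.23, and its relative Klk6 had -2.42, -0.24 and 0.07. In 5 of the 15 the RANK-/- channel of pair 1 was at least 2-fold lower, against the same 2.84%. Among the 5, Klk6, Elovl4 and Spink5 were above background on 6 arrays in the RANK+/+ channel against 4, and Klk8 on 6 against 5. The count on the lower side may thus be in part set by the filter.

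Keratins of stratified epithelia, the filaments on which the envelope is anchored, had a mean ratio below 0 in 11 of the 12 tested, of 16 on the array, where 11022 of all 22503 genes did. The list's median ratios were -1.40, -0.63 and 0.29. In all pairs 3 of 12 were lower and 0 were higher, against 9.65% and 9.93% of all genes. Limma called 0, with 3 at an unadjusted p under 0.05. Krt16, a keratin of activated keratinocytes, had -2.42, -2.32 and -0.39, Krt17 had -1.66, 0.05 and -2.10, and the basal keratin Krt5 had -1.41, -2.13 and 0.33. Basal myoepithelial cells of the mammary gland also express Krt5 and Krt17, and the 7 myoepithelial markers, Krt5 and Krt14 among them, had a summed level of 40100 in the RANK+/+ RNA of pair 1 against 19900 to 25300 in the other 5 RNAs. Their median ratios were 0.07, -0.10 and -0.01, and single markers went both ways, as in pair 1 Krt14 had -1.81 and Oxtr 1.84. The part of myoepithelial cells in the keratin values was not tested.

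Markers of the hair follicle were, like Cnfn and Krtdap, high in the RANK+/+ RNA of pair 1. Of 9 markers of the inner root sheath and cortex on the array, 6 were tested, and their summed linear level was 12800 in the RANK+/+ RNA of pair 1 against 988 to 1580 in the other 5 RNAs. Tchh, trichohyalin, itself a cross-linked protein of the inner root sheath, had ratios of -6.01, -1.85 and -1.12, and Krt28 had -4.46, -0.83 and -0.03. Unlike Cnfn, 4 of the 6 were lower in the RANK-/- channel in all pairs, against 9.65% of all genes. Among the 4 was Krt27 with -2.33, -1.12 and -1.75, whereas Krt71 had -0.83, 0.80 and -1.17. Limma called 0 (2 at an unadjusted p under 0.05). In the RANK+/+ channel 5 of the 9 markers were well above background on all arrays and in the RANK-/- channel 2 were, so some markers passed the filter through the RANK+/+ channel, in which they were high. The part of such cells in the values of Cnfn, Krtdap, Sprr1b and Sbsn was not tested.

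The enzymes and calcium sensors related to Tgm1 and Calml3 had other profiles. Of 14 transglutaminases and calmodulin-like genes 11 were tested and 0 were called. In all pairs 0 were lower and 2 were higher, against 9.65% and 9.93% of all genes. Tgm5, the transglutaminase of the upper epidermis, had -2.00, -0.15 and 0.06, the pattern of Cnfn, whereas Tgm3, the soluble epidermal form named after its values were seen, had 0.16, -0.30 and -0.12. Tgm2, the ubiquitous tissue transglutaminase, had 0.20, 1.50 and 0.64. Calm4, a skin-specific calmodulin relative, had -2.49, -0.69 and 0.07. It passed the filter through the RANK+/+ channel, above background on 4 arrays against 2.

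The 24 regulators of keratinocyte differentiation were all tested and well above background on every array. In them 3 were lower in all pairs and 2 were higher in all, shares near the 9.65% and 9.93% of all genes. Of the 24, 0 were called, and the medians were 0.36, -0.28 and 0.25. The 3 with the largest mean ratios were Maf with 1.32, 0.15 and 0.46, Gata3, the luminal regulator that also acts in epidermis, with 0.68, -0.20 and 1.28, and Tfap2c with 1.04, 0.59 and -0.09. Trp63, the master regulator of stratified epithelia, had 0.28, -0.02 and 0.17.

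Some regulators, named here after their values were seen, had the profiles of member genes. Ovol1, a zinc finger regulator of late differentiation, had -0.85, -1.31 and 2.37, and Fosl1, an AP-1 subunit, had -0.49, -0.69 and 1.31. Both resembled Sprr1a and Tgm1 in that pairs 2 and 3 had opposite signs, as did the secreted protein gene Dmkn, which lies between Sbsn and Krtdap, with -2.01, -1.71 and 1.56. In pair 3 the surface protein gene Lypd3 had 2.14 and Cst6, the inhibitor of the proteases that act on transglutaminases, had 2.05. Zfp750, a regulator of late differentiation, had 1.62, -1.45 and -0.47, the signs of Lor and Calml3. The summed level of the 8 luminal markers was also lower in pair 2, at 174000 against 307000, and higher in pair 3, at 488000 against 200000 (RANK-/- against RANK+/+), with medians of -0.47 and 0.73. Single markers differed from this, as Cldn7 had 0.48 in pair 2 and Prom1 had 0.43 and -0.59 in pairs 2 and 3, and limma called 0 (0 also at an unadjusted p under 0.05). The fibroblast markers had median ratios of 0.04, 0.90 and 2.17. The part of cell composition in the members' values was not tested.

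**Figure D3:**
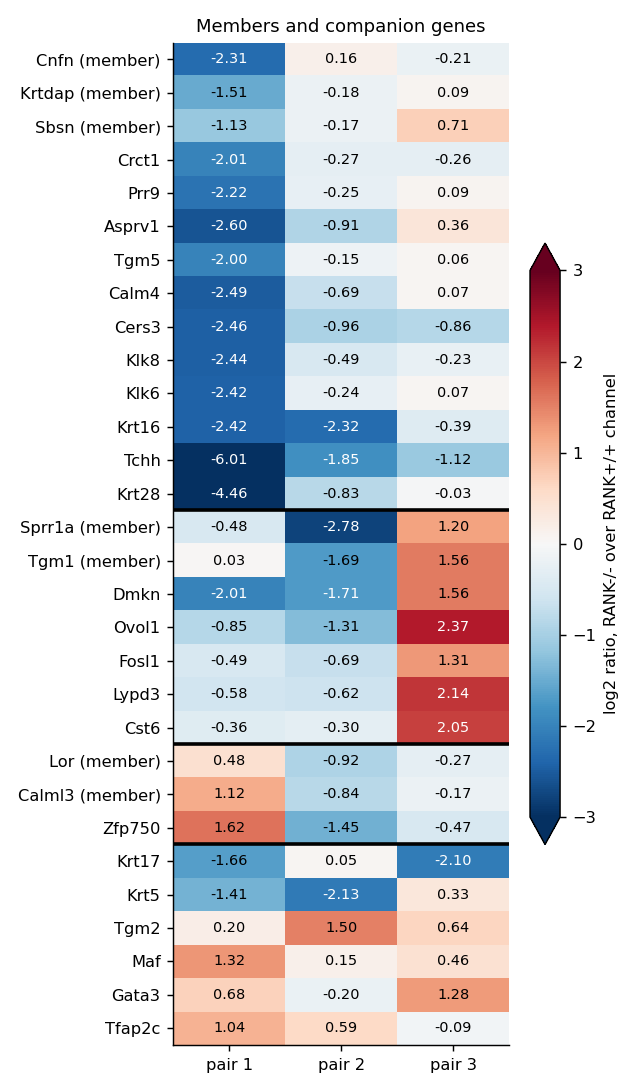
Log2 ratio of the RANK-/- over the RANK+/+ channel in pairs 1, 2 and 3 (columns) for tested members and companion genes (rows), printed in each cell and colored blue below and red above 0, with color ending at a ratio of 3 in either direction. Black lines part genes resembling Cnfn, those resembling Sprr1a and those resembling Lor, a grouping made by eye, from the other genes with the largest mean ratios of their lists. Within the group of Cnfn, Krt16 and Tchh were, unlike Cnfn, also low in pair 2, at -2.32 and -1.85. In pair 1, Tchh at -6.01 and Krt28 at -4.46 are past the end of the color scale.

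**Figure D4:**
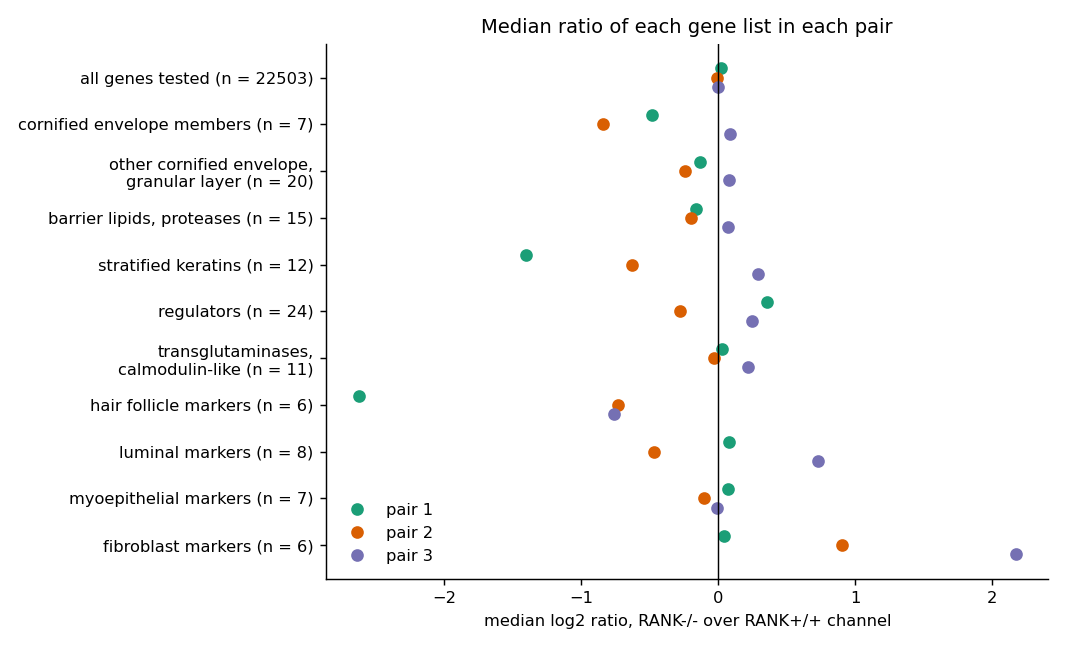
Median log2 ratio of the RANK-/- over the RANK+/+ channel (horizontal axis) in each pair (colored points) for each gene list, with the number of genes tested. The stratified keratins and the hair follicle markers were farthest below 0 in pair 1, at -1.40 and -2.62, the members were farthest below 0 in pair 2, at -0.84, and the fibroblast markers were highest in pair 3, at 2.17.

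Over the 6 RNAs, the gene most like the mean profile of the 7 tested members and in none of the lists was Acacb, which encodes the mitochondrial acetyl-CoA carboxylase, with an r of 0.995 and ratios of -0.64, -1.10 and 0.45. The next with a span of over 1 log2 unit was the unnamed probe A_55_P2063426, with an r of 0.982 and ratios of -0.36, -0.88 and 0.64. The other 4 of the 6 most alike were unnamed transcripts whose levels spanned 0.10 to 0.32 on the log2 scale. Among the members, Sprr1a was closest to their mean profile, with an r of 0.88, and Calml3 farthest, with 0.48. With 6 points and 22503 genes, high values of r are common, and they are given as a description.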

How the data were processed

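Sorted CD45- cells were compared on SurePrint G3 mouse 2-color arrays, 3 pairs of RNAs on 6 arrays. Groups, pairs and dyes came from the labels. The authors extracted spots with Agilent Feature Extraction 10.7.3.1. Scanner tables as deposited hold median spot and background intensity per channel, not normalized, beside processed intensities. The deposited series table holds log2 ratios normalized by the authors. Per the methods they give each condition over the control, after loess and Aquantile. Correlation with the scanner ratios put every column as RANK-/- over RANK+/+ (r = 0.95 to 0.962 per array). Column medians were -0.008 to 0.004. Both served as alternatives. All columns were matched to samples.

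Median signals were background-corrected in limma 3.58.1 (R 4.3.3 with the data.table package, version 1.17.8) by normexp with an offset of 50. Control spots (3671 per array) and 212 to 260 outlier spots were left out, and 0 were saturated. Loess within arrays and Aquantile between arrays followed. Levels per channel were computed from the average intensity and the log ratio (log2). Ratios were turned to RANK-/- over RANK+/+, and arrays A and B were averaged. The filter kept a probe if, for 1 genotype, Feature Extraction called arrays A and B well above background in 2 or more pairs, and the brightest probe stood for a gene. Pair ratios were tested by limma (two-sided, Benjamini-Hochberg over 22503 genes). RefSeq names and promoter windows (GRCm38.p6) were matched by accession or symbol, for 28026 of 55681 probes. Promoter coordinates are those of RefSeq, not of the array design, which used mm9. The scripts were tested on simulated data. All arrays were on 1 slide with 1 scan date, so neither could be tested as a batch, and the number of arrays limits the precision.

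Members, lists and tests were chosen with earlier results of these data known. The rule for naming genes took all members, the 3 genes of largest mean ratio in each list, the 6 genes most like the members and Tnfrsf11a. Alternatives concerned background, normalization, filter, probes, technical arrays, dye, pairing and single pairs.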

Additional observations from a re-analysis of the deposited data

How the results depend on the processing

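Members called stayed at 0 under every alternative that was run. Over all genes, the main count of 0 became 298 when the 6 arrays were taken as separate replicates, 13 with the pair as a random block, and 19 by the rank product with 5000 draws. Without the block that pairs the 2 channels of an array, 0 genes were called (830 at an unadjusted p under 0.05), and the call of no member differed. Deviations of the channels of a pair correlated at -0.218 to -0.0335. Tested members lower in every remaining pair were 2 without pair 1, 1 without pair 2 and 3 without pair 3. Leaving out 1 pair gave 0 to 1 higher in every remaining pair (1 without pair 2). With 2 pairs left, equal signs are reached more easily than with 3. The share of all genes was not computed for these settings, so these counts are not read as a result about the members.

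The members' median of -0.24 became -0.71 with the scanner software's processed signals, -0.48 with an offset of 0, -0.40 with median centring, -0.38 with the series table and -0.43 with a dye term, under which Lor had -0.06, Sbsn -0.43 and Calml3 0.31. It lay between -0.83 (without pair 3) and 0.11 (without pair 2) when 1 pair was left out. Leaving out 1 pair gave mean ratios of -0.60 to 0.11 for Lor, -1.63 to 0.36 for Sprr1a, -0.65 to 0.27 for Sbsn, -0.83 to 0.79 for Tgm1 and -0.50 to 0.48 for Calml3. The sign turned for Lor, Sprr1a and Tgm1 without pair 2, and for Sbsn and Calml3 without pair 1. Calml3, near 0, also turned with median centring (-0.18), the series table (0.00) and array B alone (-0.01). Cnfn and Krtdap stayed below 0 throughout, reaching -0.03 and -0.04 without pair 1. Over the 10 settings that could change pair values, no pair value of a tested member turned sign, although Tgm1 reached 0.00 in pair 1. Krtdap was not tested under the stricter filter. Dim genes moved most, Cnfn in pair 1 from -3.67 to -2.19, Krtdap in pair 1 from -2.85 to -1.44 and Lor in pair 2 from -2.32 to -0.81.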
